A study of Homo sapiens with 27 samples.

Results

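The enzymes described here act on small metabolites that macrophages make or use up when they meet bacteria. They were chosen by symbol from 6 routes of metabolism, namely itaconate, kynurenine, biopterin, NAD, arginine and oxysterol synthesis, together with a superoxide dismutase. Of 9 listed enzymes, 8 were found among the 20453 genes of both count tables: ACOD1 (ENSG00000102794), IDO1 (ENSG00000131203), KYNU (ENSG00000115919), KMO (ENSG00000117009), GCH1 (ENSG00000131979), NAMPT (ENSG00000105835), ARG2 (ENSG00000081181) and CH25H (ENSG00000138135). SOD2, the listed mitochondrial superoxide dismutase, was not analysed here, as no row carried the Ensembl id supplied for its symbol. This does not show that the gene is absent from the counts. All 8 passed the filter on low counts in both assays.

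The cells were THP-1, an established line from a human monocytic leukaemia. A phorbol ester, PMA, was given at 10 ng/ml during 24 h to all of them, which makes the line macrophage-like, and the treatments then lasted 3 h. The treatments were LPS+Dex, meaning lipopolysaccharide (LPS, the endotoxin sensed by Toll-like receptor 4) at 100 ng/ml together with the synthetic glucocorticoid dexamethasone at 1 µM, LPS alone, and an ethanol/PBS vehicle. Dexamethasone was not given without LPS in the samples analysed, so its effect was measured in stimulated cells only. Poly(A) RNA-seq had 4 libraries per treatment (12 in all) and ribosome profiling, which sequences the mRNA fragments that ribosomes protect, had 5 (15 in all). Per the labels, RNA came from part of the cells used for ribosome profiling.

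Libraries held 11.5 to 26.1 M counts of footprints and 19.0 to 30.7 M counts of RNA. All 10 monocyte and macrophage markers reached a mean of 1 CPM (counts per 1 M of the TMM-scaled library) in both assays, and no T cell, B cell, erythroid or epithelial marker did. Of 3 fibroblast markers COL1A1 alone reached it, with 24.1 ± 1.99 CPM of RNA with LPS+Dex, 8.54 ± 1.40 CPM with LPS and 5.90 ± 1.25 CPM with vehicle (SD, n = 4), while COL1A2 and COL3A1 averaged under 1 CPM. The summed macrophage markers were 4270.2 to 4538 CPM of RNA with LPS+Dex, 4265 to 4616 CPM with LPS and 5532 to 5848 CPM with vehicle. The part of these shifts in the results was not tested. The 3 footprint libraries numbered 4 stood apart. Their median correlation with their own group was 0.9573 with LPS+Dex, 0.9623 with LPS and 0.9659 with vehicle, against 0.9865 to 0.9929 for the other footprint libraries, and their summed macrophage markers reached 13456 to 16289 CPM against 5235 to 7002 CPM. Values without these libraries are given below where they matter.

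ACOD1 turns cis-aconitate, an intermediate of the citric acid cycle, into itaconate, an antibacterial metabolite that also slows succinate dehydrogenase. IDO1 opens the kynurenine route of tryptophan breakdown, KMO hydroxylates kynurenine and KYNU cleaves kynurenine and its hydroxylated form. GCH1 commits GTP to tetrahydrobiopterin, the cofactor of nitric oxide synthases. NAMPT is the rate-limiting enzyme that recovers NAD from nicotinamide, ARG2 is the mitochondrial arginase that splits arginine into ornithine and urea, and CH25H hydroxylates cholesterol to an oxysterol with antiviral and immune functions. In macrophages several of these genes are known targets of LPS and interferon signalling, and glucocorticoids are known to repress many inflammatory genes.

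The genes lie apart in the genome, on 7 chromosomes, with only GCH1 (chromosome 14, 54842017 to 54902826) and ARG2 (chromosome 14, 67619920 to 67651708) sharing one. The others shown are ACOD1 on chromosome 13 (76948511 to 76958638), KYNU on chromosome 2 (142877664 to 143055833), KMO on chromosome 1 (241532378 to 241595642), NAMPT on chromosome 7 (106248298 to 106285888) and CH25H on chromosome 10 (89205629 to 89207317), all in GRCh38.p14. RefSeq promoter windows of that build, reaching from 250 bases before to 50 after the start, were at hand for 6 members. The 250 bases before the start are printed for 3 of them that behaved differently in the counts: ACOD1 (chr13:76948261-76948510, plus strand), which had the largest rise with LPS, KYNU (chr2:142877414-142877663, plus strand), which rose less than ACOD1 and kept a larger share of its increment with LPS+Dex, and ARG2 (chr14:67619670-67619919, plus strand), which did not rise. Capitals mark the motif matches.
ACOD1: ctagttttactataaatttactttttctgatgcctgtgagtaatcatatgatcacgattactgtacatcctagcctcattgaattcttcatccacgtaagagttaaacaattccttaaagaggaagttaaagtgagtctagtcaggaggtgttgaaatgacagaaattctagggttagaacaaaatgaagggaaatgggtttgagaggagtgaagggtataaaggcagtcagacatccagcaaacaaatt
KYNU: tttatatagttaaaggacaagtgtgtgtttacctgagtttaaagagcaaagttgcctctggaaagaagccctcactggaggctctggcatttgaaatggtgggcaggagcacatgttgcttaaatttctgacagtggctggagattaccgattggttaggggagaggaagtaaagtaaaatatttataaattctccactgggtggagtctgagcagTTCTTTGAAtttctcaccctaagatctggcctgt
ARG2: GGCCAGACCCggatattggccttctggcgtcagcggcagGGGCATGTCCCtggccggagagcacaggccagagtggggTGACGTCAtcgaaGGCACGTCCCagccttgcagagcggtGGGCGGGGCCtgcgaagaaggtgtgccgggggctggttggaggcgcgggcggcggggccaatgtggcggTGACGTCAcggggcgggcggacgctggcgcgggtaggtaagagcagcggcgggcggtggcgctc

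The motifs, searched on both strands, were NF-kB (GGG, any 5 bases, CC, and its stricter subset GGGA, any base, TTTCC), an interferon-stimulated response element (TTTC, any 2 bases, TTTC), a gamma-activated site (TTCNNNGAA), AP-1 (TGANTCA), a glucocorticoid response element (ACA, any 3 bases, TGT, any base, C) and a cAMP response element (TGACGTCA). ACOD1 and KMO held none of them in the window of 300 bases. KYNU held 2 gamma-activated site matches, TTCTTTGAA starting 34 bases before the start (position -34, printed above) and TTCAAGGAA 6 bases after it; 7.66% of all 35116 windows held such a match. ARG2 held 2 copies of TGACGTCA, at -172 and -64 (1.85% of windows held at least 1), and 5 matches to the loose NF-kB pattern, of which those at -211 and -210 overlap. NAMPT and CH25H held 1 loose NF-kB match each, at -68 and -49, a pattern present in 58.7% of windows. Matches to the strict NF-kB, interferon, AP-1 and glucocorticoid patterns were not found in these 6 windows, against 0.558%, 3.57%, 7.71% and 2.36% of all windows. A match describes letters and does not show binding.

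LPS against vehicle asks how stimulation changed the mRNA of each enzyme and its occupancy by ribosomes. Of the 8 genes, 7 rose in RNA and 1, ARG2, fell, by edgeR's quasi-likelihood test at a Benjamini-Hochberg adjusted p under 0.05. The adjusted p of the 7 was at most 9.6e-09 in RNA and 1.0e-07 in footprints, both for KMO, while the ARG2 call ended under several alternatives. Among all 13327 genes tested in RNA 28.6% rose and 33.6% fell, 62.2% in all. In footprints 7 rose and ARG2 was not called, where 25.4% of 12197 genes rose and 27.2% fell, 52.6% in all. The median log2 fold change of the 8 was 3.73 in RNA and 3.81 in footprints, against -0.05 and -0.04 over all genes tested. Libraries of the LPS and vehicle groups did not overlap for the same 7 in either assay, which held for 52.8% of genes in RNA and 38.5% in footprints. The members were chosen with earlier results of these data known. Their counts and medians beside all genes, here and below, therefore describe them and do not test the list. These are bulk measurements, so more cells with an mRNA and more mRNA per cell cannot be told apart.

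**Figure D1:**
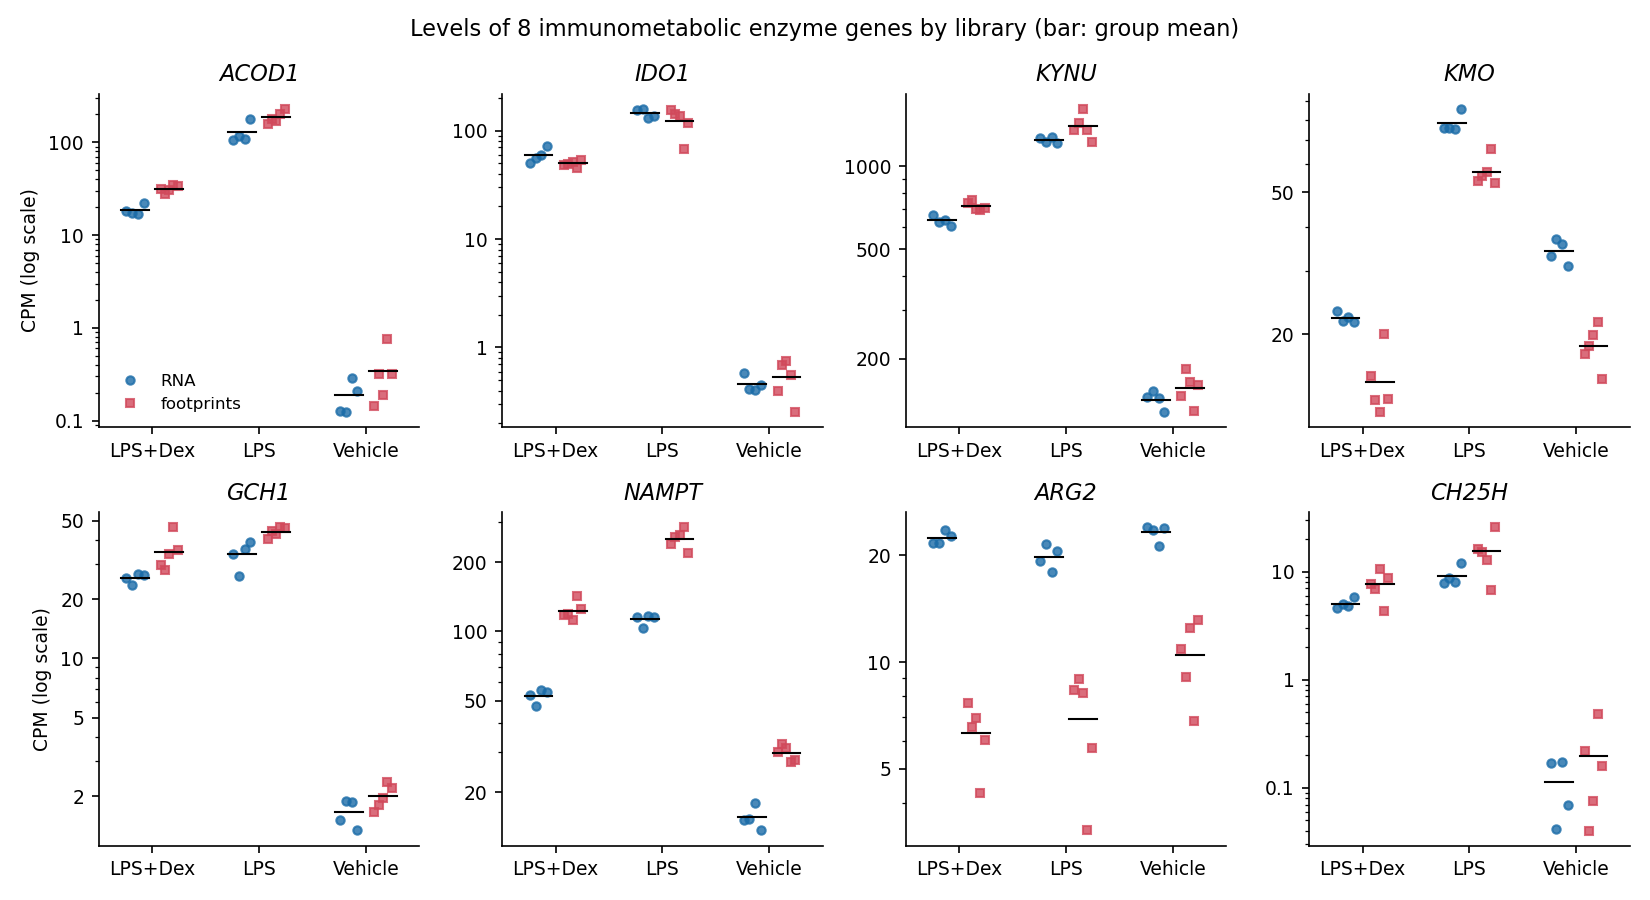
CPM of each enzyme gene in every library (log axis), by treatment, for RNA (circles, 4 libraries per treatment) and footprints (squares, 5 libraries). Bars are group means. With LPS 7 genes lay above vehicle in every library of both assays, ARG2 did not, and KMO RNA with LPS+Dex lay below every vehicle library.

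Of the 7, ACOD1 rose most. In RNA it stood at 107, 116, 109 and 179.5 CPM with LPS (replicates 1 to 4), against 0.126, 0.124, 0.29 and 0.207 CPM with vehicle. In footprints it stood at 159, 179, 168, 201 and 231 CPM with LPS, against 0.145, 0.322, 0.188, 0.766 and 0.317 CPM with vehicle. All LPS libraries lay far above all vehicle libraries. The log2 fold change was 9.31 ± 0.27 (SE) in RNA and 9.21 ± 0.28 in footprints (adjusted p = 2.8e-12 and 2.9e-12, edgeR), and its size rests on a vehicle level of 3 to 10 counts per RNA library and 4 to 11 per footprint library.

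IDO1, which starts kynurenine synthesis, followed. Its RNA was 154, 159.6, 131 and 137 CPM with LPS, against 0.586, 0.413, 0.406 and 0.448 CPM with vehicle. Its footprints were 156, 143, 138, 68.2 and 117 CPM with LPS, against 0.398, 0.685, 0.75, 0.557 and 0.254 CPM with vehicle. LPS replicate 4, a library that stood apart, had the lowest footprint value of its group and still lay far above vehicle. The log2 fold change was 8.29 ± 0.17 in RNA and 7.89 ± 0.29 in footprints. Its size rests on a vehicle level of 10 to 14 counts per RNA library and 8 to 20 per footprint library.

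The other enzymes of the kynurenine route rose less. KYNU RNA was 1263, 1230.2, 1276 and 1218 CPM with LPS, against 145, 152, 144 and 128 CPM with vehicle, and its footprints were 1351, 1433, 1621, 1352 and 1228 CPM with LPS, against 146, 184, 165, 129.5 and 160 CPM with vehicle. Its groups were tight, and the log2 fold change was 3.13 ± 0.07 in RNA and 3.16 ± 0.11 in footprints. KMO RNA was 75.6, 75.7, 75.3 and 85.9 CPM with LPS, against 33.1, 36.9, 35.9 and 31.0 CPM with vehicle. Its footprints were 53.9, 55.7, 56.9, 66.4 and 53.3 CPM with LPS, against 17.6, 18.5, 19.9, 21.6 and 15.0 CPM with vehicle. KMO had the smallest rise of the 7, at 1.19 ± 0.08 in RNA and 1.63 ± 0.13 in footprints on the log2 scale.

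The entry to biopterin, GCH1, rose as well. Its RNA was 34.0, 26.2, 35.7 and 38.9 CPM with LPS, against 1.51, 1.9, 1.88 and 1.34 CPM with vehicle. Its footprints were 40.1, 44.2, 42.9, 46.3 and 46.1 CPM with LPS, against 1.67, 1.81, 1.95, 2.37 and 2.19 CPM with vehicle. The log2 fold change was 4.34 ± 0.15 in RNA and 4.47 ± 0.15 in footprints, a 20.2-fold and a 22.1-fold rise.

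NAMPT, the NAD salvage enzyme, rose too. Its RNA was 116, 103, 117 and 116 CPM with LPS, against 15.1, 15.2, 18.0 and 13.6 CPM with vehicle. Its footprints were 241, 257, 262, 284 and 220.2 CPM with LPS, against 29.8, 32.5, 31.2, 27.1 and 27.5 CPM with vehicle. The log2 fold change was 2.87 ± 0.09 in RNA and 3.09 ± 0.09 in footprints. NAMPT has a processed pseudogene, and how shared reads were counted is not given in the sources used here. The part of such reads in its level and its change was not tested.

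For CH25H, the oxysterol enzyme, the vehicle libraries held few counts. Its RNA was 7.84, 8.68, 7.97 and 11.9 CPM with LPS, against 0.168, 0.0413, 0.174 and 0.0689 CPM with vehicle. Its footprints were 16.2, 15.3, 12.8, 6.7 and 25.8 CPM with LPS, against 0.217, 0.0403, 0.075, 0.487 and 0.158 CPM with vehicle. The LPS footprint libraries numbered 4 and 5 were the lowest and the highest of their group, and both lay above all vehicle libraries. The log2 fold change was 6.23 ± 0.27 in RNA and 6.44 ± 0.49 in footprints, with 1 to 6 counts per RNA library and 1 to 7 per footprint library behind the vehicle level. Without the libraries numbered 4 the footprint value was 7.05.

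ARG2 moved the other way, by little in RNA and, without a call, by more in footprints. Its RNA was 19.3, 21.5, 17.9 and 20.5 CPM with LPS, against 24.0, 23.6, 21.2 and 23.9 CPM with vehicle, and the groups overlapped. Its footprints were 8.32, 8.95, 8.18, 3.35 and 5.72 CPM with LPS, against 10.9, 9.07, 12.5, 6.82 and 13.1 CPM with vehicle, and these overlapped too. In RNA it fell by 0.23 ± 0.08 on the log2 scale (adjusted p = 0.027, edgeR). That call ended, with adjusted p between 0.05 and 0.096, under DESeq2 and its size factors, in a fit of these 2 groups alone, without the libraries numbered 4, and without any of the RNA libraries vehicle 1, 2 or 4 or LPS 1 or 3. In footprints the log2 value was -0.60 ± 0.24, with an adjusted p that rounds to 0.05 but lies above it. With the replicate number as a block it was -0.62 (adjusted p = 0.00096), and it also passed without the libraries numbered 4 (-0.56, adjusted p = 0.001), under DESeq2 (-0.57, 0.046) and without vehicle 4, LPS 1, LPS 2 or LPS+Dex 4 alone (-0.60 to -0.72, adjusted p = 0.02 to 0.049).

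**Figure D2:**
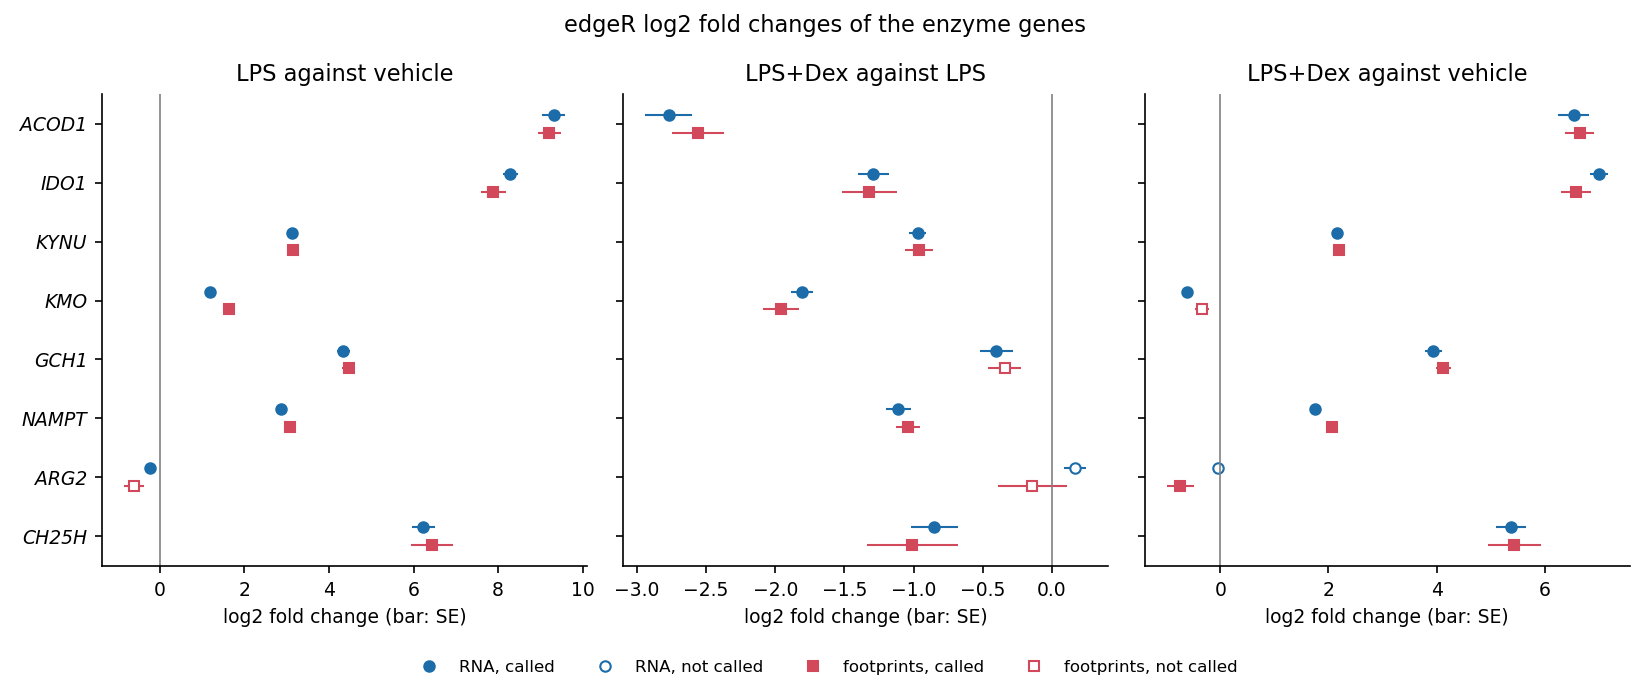
edgeR log2 fold changes of the 8 enzyme genes with their SE, in RNA (circles) and footprints (squares), for the 3 comparisons, each on its own axis. Filled symbols passed an adjusted p under 0.05. With LPS against vehicle the values run from 9.31 in RNA and 9.21 in footprints for ACOD1 to -0.23 and -0.60 for ARG2, whose values with LPS+Dex against vehicle were -0.05 in RNA and -0.74 in footprints.

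LPS+Dex against LPS asks what dexamethasone did to the stimulated genes. In RNA 7 of the 8 fell and none rose, where 15.4% of all genes tested fell and 15.5% rose, 30.9% in all. In footprints 6 fell and none rose, where 7.99% fell and 9.08% rose, 17.1% in all. The median log2 fold change of the 8 was -1.04 in RNA and -1.02 in footprints, against 0.01 and 0.02 over all genes. With the replicate number as a block the footprint calls of this comparison numbered 3769 over all genes, against 2083 without it, and 7 of the 8 enzymes were called. The groups did not overlap for 7 of the 8 in RNA and 5 of the 8 in footprints, which held for 34.2% and 13.8% of all genes. In RNA these were not the same genes as those that fell. They include ARG2, which lay higher with LPS+Dex and was not called, and leave out GCH1, which was called. This comparison and the preceding one share the LPS libraries, so a chance deviation of those libraries moves both.

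ACOD1 and KMO fell most. The adjusted p of ACOD1, KMO, IDO1, NAMPT and KYNU was at most 2.8e-04 in this comparison, for IDO1 in footprints (edgeR), and their falls are given on the log2 scale with SE. ACOD1 RNA was 18.3, 17.3, 16.9 and 22.2 CPM with LPS+Dex, against 107 to 179.5 CPM with LPS. Its footprints were 31.2, 27.9, 30.8, 34.9 and 34.1 CPM with LPS+Dex, against 159 to 231 CPM with LPS. It fell by 2.77 ± 0.17 in RNA and 2.56 ± 0.19 in footprints on the log2 scale (adjusted p = 3.0e-08 and 2.0e-07, edgeR), to 14.6% and 16.9% of the LPS mean. KMO, at the branch of the kynurenine route towards quinolinate, had 23.2, 21.8, 22.3 and 21.6 CPM of RNA with LPS+Dex, against 75.3 to 85.9 CPM with LPS. KMO footprints were 15.3, 13.1, 12.1, 20.0 and 13.2 CPM with LPS+Dex, against 53.3 to 66.4 CPM with LPS. KMO fell by 1.81 ± 0.08 in RNA and 1.96 ± 0.13 in footprints.

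IDO1, NAMPT and KYNU fell to 40.9%, 46.3% and 51.0% of their mean LPS level in RNA, and to 40.1%, 48.7% and 51.4% in footprints. IDO1 RNA was 50, 56.3, 59.5 and 71.5 CPM with LPS+Dex, against 131 to 159.6 CPM with LPS, and its footprints were 48.3, 49.5, 51.8, 45.7 and 54.1 CPM with LPS+Dex, against 68.2 to 156 CPM with LPS. IDO1 fell by 1.29 ± 0.11 in RNA and 1.32 ± 0.20 in footprints. NAMPT RNA was 52.6, 47.3, 55.5 and 54.3 CPM with LPS+Dex, against 103 to 117 CPM with LPS, a fall by 1.11 ± 0.09. NAMPT footprints were 118, 119, 112, 142 and 125 CPM with LPS+Dex, against 220.2 to 284 CPM with LPS, a fall by 1.04 ± 0.09. KYNU RNA was 666, 628, 639 and 609 CPM with LPS+Dex, against 1218 to 1276 CPM with LPS. KYNU footprints were 733, 753, 702, 696 and 707 CPM with LPS+Dex, against 1228 to 1621 CPM with LPS, and KYNU fell by 0.97 ± 0.06 in RNA and 0.96 ± 0.10 in footprints. None of these groups overlapped.

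CH25H and GCH1 fell least in RNA among the genes that LPS had raised, while in footprints GCH1 had the smallest value and KYNU (-0.96) and CH25H (-1.01) the next. CH25H RNA was 4.58, 4.97, 4.77 and 5.83 CPM with LPS+Dex, against 7.84 to 11.9 CPM with LPS, and fell by 0.85 ± 0.17 (adjusted p = 0.0014, edgeR). CH25H footprints were 7.77, 6.91, 10.6, 4.28 and 8.68 CPM with LPS+Dex, against 6.7 to 25.8 CPM with LPS, and the groups overlapped. The footprint value of -1.01 ± 0.33 just passed (adjusted p = 0.049, and 0.0011 with the replicate block). It no longer passed without any 1 of 12 footprint libraries, namely replicates 1, 2, 3 and 5 of vehicle, the same numbers of LPS and replicates 1, 2, 4 and 5 of LPS+Dex, nor without the filter on low counts or in a fit of these 2 groups alone (adjusted p = 0.051 to 0.15). Without LPS footprint replicate 5, the highest, CH25H stood at -0.75.

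GCH1 RNA was 25.5, 23.7, 26.7 and 26.4 CPM with LPS+Dex, against 34.0, 26.2, 35.7 and 38.9 CPM with LPS, and LPS replicate 2 lay within the LPS+Dex range. It fell by 0.40 ± 0.12 (adjusted p = 0.021, edgeR). The call ended without LPS replicate 1, 3 or 4 or LPS+Dex replicate 2 (adjusted p = 0.051 to 0.077) and without all RNA libraries numbered 4 (-0.34, adjusted p = 0.1). GCH1 footprints were 29.6, 28.1, 33.8, 46.3 and 35.3 CPM with LPS+Dex, against 40.1, 44.2, 42.9, 46.3 and 46.1 CPM with LPS. LPS+Dex replicate 4 was as high as the highest LPS library, and the other 4 lay below all of them. The value of -0.34 ± 0.12 did not pass (adjusted p = 0.067). It passed with the replicate block (-0.37, adjusted p = 0.0017), without the libraries numbered 4 (-0.45, 0.00018), without LPS+Dex replicate 4 alone (-0.47, 0.0025) and under DESeq2 (-0.36, 0.032).

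ARG2, which LPS had not raised, was not called in this comparison. Its RNA was 21.6, 21.6, 23.6 and 22.6 CPM with LPS+Dex, against 17.9 to 21.5 CPM with LPS, and the groups narrowly did not overlap. The log2 value was 0.17 ± 0.08 (adjusted p = 0.13, edgeR). Its footprints were 7.65, 6.55, 6.95, 4.28 and 6.03 CPM with LPS+Dex, against 3.35 to 8.95 CPM with LPS, a log2 value of -0.14 ± 0.25 (adjusted p = 0.81).

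How much of the LPS increment was left with dexamethasone differed between the genes. The increment is the LPS mean minus the vehicle mean, and the share left is given with the SD over the LPS+Dex libraries alone. In RNA it was -27.4 ± 1.63% for KMO, 14.5 ± 1.92% for ACOD1, 37.8 ± 3.71% for NAMPT, 40.7 ± 6.24% for IDO1, 44.7 ± 2.15% for KYNU, 54.9 ± 6.13% for CH25H and 74.6 ± 4.17% for GCH1 (n = 4 each). In that order the SDs of NAMPT and IDO1 overlapped, as did those of IDO1 and KYNU, and the other neighbours were separated by more than their SDs. In footprints the shares were -9.8 ± 8.13% for KMO, 16.8 ± 1.48% for ACOD1, 39.8 ± 2.59% for IDO1, 41.9 ± 5.13% for NAMPT, 45.3 ± 1.95% for KYNU, 49.1 ± 15.3% for CH25H and 77.8 ± 17.0% for GCH1 (n = 5 each). There all neighbours from IDO1 to GCH1 had overlapping SDs, while KMO and ACOD1 were separated from each other and from the rest. Differences between genes were not tested. Within the kynurenine route KMO had no increment left in either assay, while IDO1 and KYNU kept 40.7% and 44.7% in RNA.

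**Figure D3:**
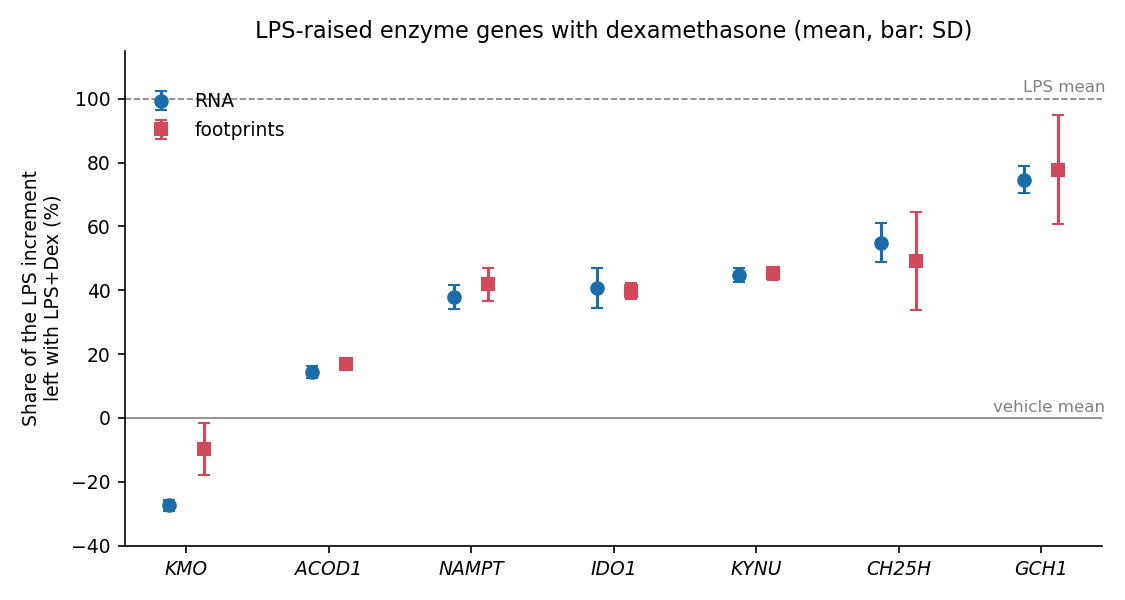
Share of the LPS increment (LPS mean minus vehicle mean, in CPM) left with LPS+Dex for the 7 genes that rose, in RNA (circles, n = 4) and footprints (squares, n = 5), as mean and SD over the LPS+Dex libraries. The lines at 0 and 100% are the vehicle and LPS means. KMO lies below the vehicle mean in both assays and GCH1 keeps the largest share, 74.6% in RNA and 77.8% in footprints.

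LPS+Dex against vehicle shows where the enzymes stood with both agents. In RNA 6 of the 8 rose, KMO fell and ARG2 was not called, where 29.2% of genes rose, 31.0% fell and 60.2% were called in either direction. In footprints 6 rose, ARG2 fell and KMO was not called, where 24.4% rose, 22.0% fell and 46.4% were called. ACOD1 still stood 92.5-fold above vehicle in RNA and 100-fold in footprints, IDO1 128-fold and 95.1-fold, CH25H 41.5-fold and 43.1-fold, GCH1 15.3-fold and 17.4-fold, KYNU 4.47-fold and 4.58-fold, and NAMPT 3.38-fold and 4.16-fold. The SE of these values lay between 0.06 and 0.49 on the log2 scale and the adjusted p was at most 3.6e-07, that of CH25H in footprints (edgeR). The groups did not overlap for 7 of the 8 in RNA and 6 in footprints, which held for 52.4% and 32.8% of all genes.

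KMO was the exception. Its RNA was 21.6 to 23.2 CPM with LPS+Dex, against 31.0 to 36.9 CPM with vehicle, with no overlap, and it fell by 0.62 ± 0.08 on the log2 scale (adjusted p = 9.7e-06, edgeR). KMO footprints were 12.1 to 20.0 CPM with LPS+Dex, against 15.0 to 21.6 CPM with vehicle, and overlapped. Their log2 value was -0.33 ± 0.13 (adjusted p = 0.053), and it passed with the replicate block (-0.33, adjusted p = 0.0034), without the libraries numbered 4 (-0.39, 0.00089), under DESeq2 (-0.32, 0.046) and without footprint replicate 5 of vehicle, 4 of LPS or 4 of LPS+Dex alone (-0.33 to -0.46, adjusted p = 0.0032 to 0.047). ARG2 RNA was 21.6 to 23.6 CPM with LPS+Dex, against 21.2 to 24.0 CPM with vehicle, and its log2 value was -0.05 ± 0.08 (adjusted p = 0.61). ARG2 footprints were 4.28 to 7.65 CPM with LPS+Dex, against 6.82 to 13.1 CPM with vehicle, and fell by 0.74 ± 0.25 (adjusted p = 0.023). That call ended without footprint replicate 3 or 5 of vehicle or replicate 5 of LPS+Dex (adjusted p = 0.051 to 0.069).

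Translational efficiency, the footprints per mRNA of a gene, asks whether ribosome occupancy changed beyond the mRNA. The test, in 1 edgeR fit over all 27 libraries, takes the log2 change of RNA away from that of footprints. It treats all 27 libraries as independent, although per the labels RNA came from part of the cells used for ribosome profiling. None of the 8 enzymes was called in any of the 3 comparisons. Over all 13679 genes tested 1.51% were called for LPS against vehicle, 0.0366% for LPS+Dex against LPS and 1.54% for LPS+Dex against vehicle. The log2 values of the 8 ranged between -0.35 and 0.47 with LPS against vehicle, -0.32 and 0.21 with LPS+Dex against LPS, and -0.65 and 0.32 with LPS+Dex against vehicle. A miss of the threshold does not show equal efficiency.

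KMO had the largest value with LPS. Its ratio of mean footprint CPM to mean RNA CPM was 0.732 with LPS, against 0.541 with vehicle. The log2 difference was 0.47 ± 0.15 (unadjusted p = 0.0042, adjusted p = 0.13, edgeR). It was called without all libraries numbered 4 (0.59, adjusted p = 0.0073), without the footprint libraries numbered 4 (0.50, 0.012) and without LPS+Dex footprint replicate 4 alone (0.48, 0.045). That last alternative keeps all libraries of both compared groups and changes the scaling, the spread and the number of genes. ARG2 had a ratio of 0.282 with LPS+Dex, against 0.453 with vehicle, a log2 difference of -0.65 ± 0.29 (unadjusted p = 0.036, adjusted p = 0.3), and was called without the footprint libraries numbered 4 (-0.64, adjusted p = 0.023). NAMPT had a ratio of 2.35 with LPS+Dex and 1.91 with vehicle, a log2 difference of 0.32 ± 0.12 (unadjusted p = 0.012, adjusted p = 0.19). For KYNU the ratio was 1.13 with LPS+Dex, 1.12 with LPS and 1.11 with vehicle, and its log2 differences were 0.06 ± 0.14, 0.01 ± 0.14 and 0.06 ± 0.14 for LPS against vehicle, LPS+Dex against LPS and LPS+Dex against vehicle. For ACOD1, IDO1 and CH25H the vehicle ratio rests on low counts and could not be set against the others with any precision.

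**Figure D4:**
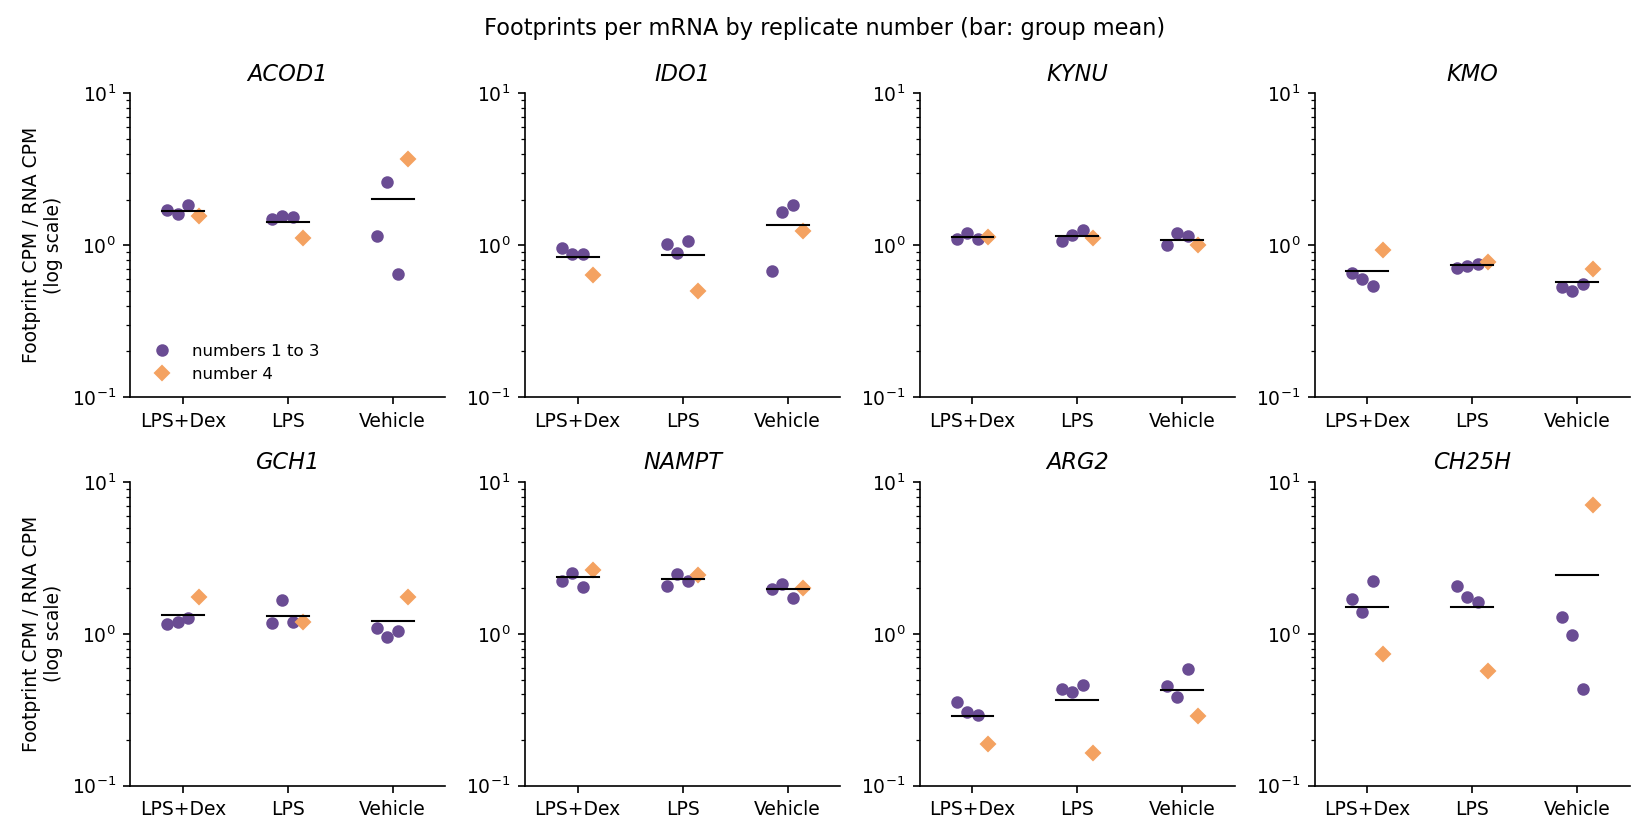
Footprint CPM divided by RNA CPM of the library with the same number (log axis), for numbers 1 to 4 of each treatment, with bars for the group mean. Labels do not say that equal numbers pair libraries, so each ratio and the scatter rest on an assumed pairing. Diamonds are the libraries numbered 4, which lie lowest with LPS+Dex and with LPS for ACOD1, IDO1, ARG2 and CH25H. KYNU stays between 1.00 and 1.27 in all 12 ratios, and the vehicle ratios of ACOD1 and CH25H scatter most.

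The other genes of the pathways were described from 7 lists with 124 genes, by the same edgeR test and threshold. Their changes are log2 fold changes ± SE, those of RNA followed by those of footprints. Their counts stand against all genes tested, of which 28.6% rose and 33.6% fell in RNA and 25.4% rose and 27.2% fell in footprints with LPS, and 15.5% rose and 15.4% fell in RNA and 9.08% rose and 7.99% fell in footprints with LPS+Dex against LPS. The median over all genes was -0.05 and -0.04 with LPS and 0.01 and 0.02 with LPS+Dex against LPS. Around itaconate, 25 genes of the citric acid cycle were tested in RNA, of which 7 rose and 6 fell with LPS and 4 rose and 1 fell with LPS+Dex against LPS. In footprints 7 of 24 rose and 3 fell with LPS, and 1 rose and 1 fell with LPS+Dex. The list's medians were 0.02 and 0.05 with LPS and 0.00 and 0.03 with LPS+Dex against LPS, and its counts of genes that rose lay near the shares of all genes, except in footprints with LPS+Dex. IDH1, the cytosolic isocitrate dehydrogenase, had the largest fall, at 12.0 ± 0.696 CPM of RNA with LPS against 40.2 ± 7.28 CPM with vehicle (SD, n = 4), a log2 value of -1.75 ± 0.12 in RNA and -1.92 ± 0.17 in footprints. ACO1, the cytosolic aconitase, had the largest rise in RNA, by 0.83 ± 0.14, while in footprints 0.39 ± 0.16 missed the threshold (adjusted p = 0.051, and 3.1e-05 with the replicate block, 0.0036 without LPS footprint replicate 4 and 0.023 without LPS+Dex footprint replicate 4). SDHA, the succinate dehydrogenase subunit, was not called with LPS (-0.14 ± 0.10 in RNA, -0.16 ± 0.10 in footprints), except in RNA without vehicle replicate 3 (-0.21, adjusted p = 0.048). The mitochondrial carrier SLC25A10 fell by 1.43 ± 0.18 in RNA with LPS, stood 0.96 ± 0.19 higher with LPS+Dex than with LPS, and did not pass the footprint filter. IDH3A, a subunit of the mitochondrial isocitrate dehydrogenase, rose with LPS by 0.51 ± 0.07 and 0.49 ± 0.06. With LPS+Dex against LPS it stood at -0.25 ± 0.07 in RNA and -0.21 ± 0.06 in footprints, calls that ended without LPS+Dex RNA replicate 4 (-0.21, adjusted p = 0.053) and without footprint replicate 3 of vehicle, 1, 2 or 3 of LPS or 1, 2, 3 or 5 of LPS+Dex (-0.18 to -0.22, adjusted p = 0.052 to 0.084).

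Of the other kynurenine pathway genes 6 of 16 rose and 4 fell in RNA with LPS, and 4 of 14 rose and 5 fell in footprints. With LPS+Dex against LPS 1 rose and 5 fell in RNA, and none rose and 2 fell in footprints. Their medians were 0.07 and 0.05 with LPS and -0.04 and -0.09 with LPS+Dex against LPS. QPRT, which carries quinolinate on to NAD, fell with LPS to 20.6 ± 1.82 CPM of RNA against 79.5 ± 5.94 CPM with vehicle, by 1.95 ± 0.10 in RNA and 1.63 ± 0.20 in footprints. HAAO, the dioxygenase between KYNU and QPRT, fell by 0.72 ± 0.19 in RNA and was not called in footprints (-0.49 ± 0.31). With the replicate block the HAAO footprint value passed (-0.50, adjusted p = 0.049). IDO2, the paralog of IDO1, rose by 6.02 ± 0.37 in RNA and 4.99 ± 0.73 in footprints, but to a mean of only 2.66 CPM of RNA with LPS against 0.0353 CPM with vehicle. It stood higher again with LPS+Dex than with LPS in RNA (1.17 ± 0.18), and its footprint value of 0.88 ± 0.4 was not called in the main fit. WARS1, the tryptophanyl-tRNA synthetase, rose by 1.56 ± 0.07 in RNA and 1.10 ± 0.10 in footprints with LPS, and fell by 0.91 ± 0.07 and 0.64 ± 0.09 with LPS+Dex. AHR, the receptor for kynurenine, rose by 1.10 ± 0.15 and 1.07 ± 0.14 with LPS and fell by 0.89 ± 0.15 and 0.68 ± 0.14 with LPS+Dex. CYP1B1, a known target gene of AHR, fell in RNA with LPS+Dex against LPS by 1.34 ± 0.30, and its footprint value of -0.53 ± 0.37 passed only with the replicate block (-0.63, adjusted p = 0.0042), without the libraries numbered 4 (-0.73) or without LPS+Dex footprint replicate 4 (-1.07).

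Of 8 biopterin genes other than GCH1, 1 rose and 3 fell with LPS in each assay, with medians of -0.21 and -0.24, and the number that fell lay near the share of all genes. GCHFR, the feedback regulator of GCH1, fell by 1.08 ± 0.20 in RNA and 1.69 ± 0.26 in footprints. SPR, the last enzyme of synthesis, fell by 0.44 ± 0.12 and 0.59 ± 0.12 with LPS, the RNA value passing no longer without the libraries numbered 4 (-0.35, adjusted p = 0.06). PTS, which acts between GCH1 and SPR, was not called (0.16 ± 0.15 and 0.21 ± 0.18), except in RNA without vehicle replicate 2 (0.32, adjusted p = 0.044). AKR1B1, the aldose reductase, rose with LPS by 0.66 ± 0.08 and 0.61 ± 0.12, and fell with LPS+Dex by 0.37 ± 0.08 in RNA and 0.43 ± 0.12 in footprints, the last call ending without LPS footprint replicate 1, 3 or 5 or LPS+Dex replicate 2 (adjusted p = 0.054 to 0.073). SPR stood 0.49 ± 0.12 higher with LPS+Dex than with LPS in RNA, and its footprint value of 0.31 ± 0.13 was not called in the main fit. With LPS+Dex against LPS 1 gene rose and 1 fell in RNA, and 2 fell in footprints (medians 0.03 and -0.07).

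Among 18 NAD genes 5 rose and 7 fell in RNA with LPS, and 5 of 17 rose and 5 fell in footprints. Against LPS, LPS+Dex raised 6 and lowered 3 in RNA and raised 5 and lowered 1 in footprints. Medians of the NAD genes were 0.01 and -0.07 with LPS and 0.04 and 0.01 with LPS+Dex against LPS. CD38, which breaks NAD down, rose with LPS by 3.26 ± 0.26 in RNA and 2.10 ± 0.20 in footprints, and rose further with LPS+Dex against LPS, by 2.55 ± 0.19 and 2.65 ± 0.19. Its RNA averaged 22.2 ± 2.59 CPM with LPS+Dex, 3.81 ± 0.747 CPM with LPS and 0.377 ± 0.179 CPM with vehicle (SD, n = 4 each). PARP14, an ADP-ribosyltransferase that uses NAD, rose by 3.24 ± 0.17 and 2.13 ± 0.21 with LPS and fell by 1.17 ± 0.15 and 0.95 ± 0.20 with LPS+Dex. It was the only gene of the 7 lists called in translational efficiency with LPS against vehicle (-1.08 ± 0.28, adjusted p = 0.045, edgeR). That call ended without the filter on low counts (adjusted p = 0.055), with each treatment and replicate number as a block over numbers 1 to 4 (0.071) and without any 1 library other than footprint replicates 1 of vehicle and 4 and 5 of LPS+Dex and RNA replicate 3 of vehicle (-0.84 to -1.16, adjusted p = 0.051 to 0.11). Without the footprint libraries numbered 4 it stood at -0.70 (adjusted p = 0.014). NAPRT, which makes NAD from nicotinic acid, fell by 0.58 ± 0.14 and 0.49 ± 0.08 with LPS and stood higher with LPS+Dex than with LPS, by 0.72 ± 0.14 and 0.31 ± 0.08. NMNAT1, the nuclear enzyme after NAMPT, fell in footprints with LPS (by 0.37 ± 0.09) and was not called in RNA (-0.27 ± 0.13), although it passed without vehicle replicate 2 (-0.33, adjusted p = 0.046) and with a replicate block (-0.28, adjusted p = 0.046). SARM1, an enzyme that cleaves NAD, fell by 1.62 ± 0.19 in RNA with LPS and did not pass the footprint filter, and NNMT, which methylates nicotinamide, passed neither filter.

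In arginine and polyamine metabolism 10 of 18 genes rose and 2 fell in RNA with LPS, and 9 rose and 2 fell in footprints. Against LPS, LPS+Dex raised 4 and lowered 1 in RNA and raised 2 and lowered 2 in footprints. Medians were 0.34 and 0.28 with LPS and 0.11 and -0.03 with LPS+Dex against LPS. SLC7A2, a transporter of arginine, rose by 3.07 ± 0.39 in RNA and 2.98 ± 0.27 in footprints with LPS, and with LPS+Dex stood a further 2.28 ± 0.26 above LPS in footprints (0.89 ± 0.33 in RNA, adjusted p = 0.057, which passed without vehicle RNA replicate 2 or 3 at 0.03 and 0.038, in a fit of these 2 groups at 0.022 and with a replicate block at 0.0061). The LPS+Dex footprint libraries were widely spread for SLC7A2, with a mean of 306 ± 172 CPM, against 63.2 ± 4.27 CPM with LPS (SD, n = 5). SMS, the spermine synthase, rose by 1.24 ± 0.10 and 1.36 ± 0.09 with LPS and fell by 0.41 ± 0.09 and 0.59 ± 0.09 with LPS+Dex. NOS2, the inducible nitric oxide synthase, was scarce, with a mean RNA level of 1.42 CPM with LPS+Dex, 0.219 CPM with LPS (4 to 5 counts per library) and 1.89 CPM with vehicle. It fell by 3.07 ± 0.22 with LPS and stood 2.67 ± 0.24 higher with LPS+Dex than with LPS in RNA. ARG1, the cytosolic arginase, did not pass the filter. ASS1, which rebuilds arginine from citrulline, rose by 0.36 ± 0.08 in RNA with LPS and was not called in footprints (0.17 ± 0.18), and ODC1, which turns ornithine into putrescine, was not called in either assay (0.01 ± 0.06 and 0.12 ± 0.14).

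Of 11 oxysterol genes other than CH25H tested in RNA, 6 were higher and 3 lower with LPS, and of 10 in footprints 2 were higher and 3 lower. CYP7B1, which acts on the product of CH25H, rose with LPS by 3.54 ± 0.12 in RNA and 3.00 ± 0.20 in footprints, to 106 ± 4.90 CPM of RNA against 9.08 ± 1.78 CPM with vehicle (SD, n = 4), and fell by 0.56 ± 0.11 in RNA with LPS+Dex (-0.28 ± 0.19 in footprints, called only without the libraries numbered 4 at -0.38, adjusted p = 0.00047, or without LPS+Dex replicate 4 at -0.48, adjusted p = 0.041). GPR183, the receptor for the resulting oxysterol, fell by 1.60 ± 0.13 in RNA and 1.56 ± 0.21 in footprints with LPS, and again fell by 1.55 ± 0.14 and 1.03 ± 0.21 with LPS+Dex against LPS. Its RNA averaged 11.7 ± 2.12 CPM with LPS+Dex, 34.2 ± 3.27 CPM with LPS and 104 ± 15.4 CPM with vehicle. HSD3B7, which oxidises sterol intermediates, fell with LPS by 1.73 ± 0.15 and 1.51 ± 0.40. SOAT1, which stores cholesterol as esters, stood 0.67 ± 0.15 higher with LPS+Dex than with LPS in RNA, and its footprint value of 0.93 ± 0.43 passed with the replicate block (0.83, adjusted p = 3.9e-05) or without LPS footprint replicate 4 (1.36, adjusted p = 0.029). In all, 2 oxysterol genes rose and 4 fell with LPS+Dex against LPS in RNA, and 1 rose and 2 fell in footprints. The oxysterol medians were 0.39 and 0.03 with LPS and -0.05 and -0.07 with LPS+Dex against LPS.

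Of 18 genes that remove superoxide and peroxide or belong to the phagocyte oxidase, 6 rose and 6 fell in RNA with LPS, and 5 rose and 5 fell in footprints. With LPS+Dex against LPS 2 rose and 4 fell in RNA, and 4 fell in footprints, with medians of 0.20 and 0.17 with LPS and 0.12 and -0.02 with LPS+Dex against LPS. TXNRD1, the thioredoxin reductase, rose by 1.34 ± 0.23 and 1.29 ± 0.15 with LPS and fell by 1.39 ± 0.23 and 1.05 ± 0.15 with LPS+Dex. CAT, the catalase, fell by 1.44 ± 0.13 and 1.04 ± 0.29 with LPS. GPX1, a glutathione peroxidase, fell by 0.44 ± 0.08 and 0.73 ± 0.16 with LPS. In RNA it stood 0.52 ± 0.08 higher with LPS+Dex than with LPS, and its footprint value of 0.37 ± 0.16 passed with the replicate block (adjusted p = 0.00022) or without LPS+Dex replicate 4 (0.47, adjusted p = 0.029). SOD1, the cytosolic superoxide dismutase, was not called with LPS (0.24 ± 0.11 and 0.32 ± 0.17, adjusted p = 0.071 and 0.12). It passed in RNA under DESeq2 and its size factors (0.28, 0.036 and 0.04), with a replicate block (0.24, 0.02) and without vehicle replicate 1 or 2 (0.31 and 0.30), and in footprints with the replicate block (0.33, 5.2e-05), without the libraries numbered 4 (0.31, 0.00018) and without LPS replicate 4 (0.43, 0.033).

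Genes whose RNA pattern over the 12 libraries was most like each enzyme were taken from the 8458 genes that averaged 5 CPM or more in RNA and in footprints, by Pearson's r of log2 CPM. These r values describe the order of 3 treatments that all points share. ACOD1 was closest to CXCL11 (r = 0.9978), PLSCR1 and CD44, IDO1 to IFI44 (0.9993), RIPK2 and TNIP1, and GCH1 to BIRC3 (0.999), OGFRL1 and CFLAR. KYNU was closest to CD40 (0.9982), CXCL8 and FOXF1, NAMPT to IL18R1 (0.9981), IL1B and PIM2, and CH25H to OTUD1 (0.9965), DNAJB6 and NOCT. KMO was closest to PLA2G4A (0.9885), IL1RN and SNAI1. Over the 15 footprint libraries r with these first-named genes was 0.9699 for ACOD1, 0.9218 for IDO1, 0.9799 for GCH1, 0.9317 for KYNU, 0.9837 for NAMPT, 0.957 for CH25H and 0.8173 for KMO. ARG2, whose RNA hardly moved, was closest to CIZ1 (0.9355), EIF2D (0.915) and TM7SF2 (0.9108) in RNA. In footprints r with these was 0.7495, 0.2008 and 0.3064.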

How the data were processed

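The authors deposited 1 table of raw counts per gene for RNA-seq and 1 for footprints, with a column per library and no pooling or scaling. Tools named for both assays, per the submitters' processing notes, are DESeq2 1.26.0, featureCounts 2.0.1 and STAR 2.7.10a, with Bowtie2 2.4.5 for footprints and the build GRCh38/hg38. What each tool did, the annotation, the strand setting and the handling of multiply matching reads were not stated there.

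Counts were tested with edgeR 4.0.16 (R 4.3.3): filterByExpr (minimum count 10, minimum total 15), TMM scaling and the 2-sided quasi-likelihood F test with Benjamini-Hochberg adjustment over all genes tested, called at an adjusted p under 0.05. RNA (12 libraries) and footprints (15) were fitted separately over the 3 treatments, and translational efficiency as the interaction over all 27. SE is the log2 fold change divided by the square root of F. CPM were computed here with TMM-scaled library sizes, and the scripts were tested on simulated data. No gene lengths were used, so levels are compared within a gene only. DESeq2 1.42.0, its size factors, no filter, fits of 2 groups, left-out libraries and replicate blocks were the alternatives. One, without the footprint libraries numbered 4, was chosen after seeing the data.

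The members and the pathway lists were chosen with earlier results of these data known. Besides the members, the genes named are fixed neighbours of each enzyme and the called list gene with the largest rise and largest fall in RNA with LPS (against vehicle) and with LPS+Dex (against LPS). A result for 1 such gene is not reported here. The labels do not state separate cultures, so p-values measure the spread between these samples. Labels do not say that replicate numbers pair libraries. After removal of treatment means, 15 of 15 pairs of same-numbered footprint libraries had r over 0.1 across genes (median 0.271), against 34 of 60 of different number (median 0.169). Without the libraries numbered 4 these were 3 of 12 and 2 of 36. In RNA 7 of 12 same-numbered pairs did (median 0.207), against 13 of 36 of different number (median -0.0417). Without the RNA libraries numbered 4 these were 6 of 9 and 5 of 18. The block was run in both assays and is given beside results only where it changes them. No libraries were duplicates, with chi-square per degree of freedom of at least 3.37 between any 2 of a group.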

Additional observations from a re-analysis of the deposited data

Results flagged for a closer look

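In 48 groups of 4 or 5 libraries, 6 values of the enzymes lay apart from the rest of their group by Dixon's test, where chance gives about 1 in 20 groups. In RNA, LPS replicate 4 had 179.5 CPM of ACOD1 against 107 to 116 CPM in the other LPS libraries, and 85.9 CPM of KMO against 75.3 to 75.7 CPM. LPS replicate 2 had 103 CPM of NAMPT RNA against 116 to 117 CPM, and vehicle replicate 3 had 21.2 CPM of ARG2 RNA against 23.6 to 24.0 CPM. In footprints, vehicle replicate 4 had 0.766 CPM of ACOD1 against 0.145 to 0.322 CPM, and LPS replicate 4 had 66.4 CPM of KMO against 53.3 to 56.9 CPM. Of the 6 values, 4 belong to libraries numbered 4. The part of those libraries in the results was measured by leaving them out.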

How the results depend on the processing

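In RNA and footprints none of the 8 enzymes changed direction under any alternative run, and the calls that did change, for ARG2, GCH1, CH25H and KMO, are given with those genes. The count of enzymes called in RNA and footprints stayed within 1 of the main count under every alternative. In RNA the replicate block changed no call of the 8, while of the other named genes NMNAT1, SOD1, ACO1 and SLC7A2 passed with it. The block gave 8847, 4858 and 8592 genes called in RNA (LPS against vehicle, LPS+Dex against LPS, LPS+Dex against vehicle), against 8291, 4123 and 8021 without it. In footprints LPS+Dex against LPS called 3769 genes with the block and 3855 without the libraries numbered 4, against 2083. Beyond the calls given above, the block changed no other call of the 8.

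Translational efficiency depended most on the setting. In the order above, main counts were 207, 5 and 211 genes. DESeq2 gave 444, 20 and 487, leaving out the libraries numbered 4 gave 541, 32 and 564, and leaving out only their footprint libraries gave 674, 51 and 1036. A replicate block gave 300, 8 and 343, and a replicate block of treatment by number gave 76, 1 and 57. Leaving out 1 library at a time gave 128 to 299, 4 to 12 and 130 to 330. Of the enzymes, 0 to 1 was called for LPS against vehicle (KMO) and 1 for LPS+Dex against vehicle without the footprint libraries numbered 4 (ARG2). The cause was not tested.

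Some values that were not called changed sign. For efficiency with LPS against vehicle, ACOD1 was 0.47 without the libraries numbered 4 and 0.29 without their footprint libraries, and CH25H was -0.11 with the block of treatment by number. With LPS+Dex against LPS, KYNU was -0.02 under DESeq2, its size factors and that block, GCH1 was -0.11 and -0.05 without all or the footprint libraries numbered 4, and CH25H was 0.05 with that block. With LPS+Dex against vehicle CH25H was 0.00 under DESeq2 and -0.07 with that block. Leaving out 1 library gave -0.37 to 0.29 (ACOD1), -0.01 to 0.12 (KYNU) and -0.04 to 0.71 (CH25H) for LPS against vehicle. It gave -0.20 to 0.07 (IDO1), -0.03 to 0.08 (KYNU), -0.06 to 0.14 (GCH1) and -0.36 to 0.10 (CH25H) for LPS+Dex against LPS, and -0.16 to 0.50 (ACOD1) and -0.21 to 0.54 (CH25H) for LPS+Dex against vehicle. In RNA, LPS+Dex against LPS, HSD3B7 was -0.02 under DESeq2 and its size factors, 0.00 with the replicate block and -0.01 in a fit of 2 groups, and IDH1 was -0.01, -0.01 and 0.00 under DESeq2, its size factors and 2 groups. Leaving out 1 library gave -0.12 to 0.14 (HSD3B7), -0.05 to 0.06 (IDH1) and, with LPS against vehicle, -0.01 to 0.04 (ODC1). In footprints it gave -0.27 to 0.06 (HAAO), -0.17 to 0.18 (GCHFR), -0.19 to 0.02 (SOD1), -0.23 to 0.10 (CAT), -0.19 to 0.04 (ACO1) and -0.10 to 0.75 (HSD3B7) for LPS+Dex against LPS, and -0.59 to 0.09 for SOAT1 with LPS against vehicle. Low vehicle counts of ACOD1, IDO1 and CH25H limit their folds and ratios.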
